A study of Mus musculus with 2 samples.

Results

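Granzymes are serine proteases that killer lymphocytes store in secretory granules, and perforin is the protein that lets them into the target cell. The genes described here were 8 granzyme genes, Gzma, Gzmb, Gzmc, Gzmd, Gzme, Gzmf, Gzmg and Gzmk, and the perforin gene Prf1. They were chosen by name, and all 9 of 9 were present among the 27998 genes of each library's table. Their levels and combinations were followed in natural killer (NK) cells, CD8 T cells, CD4 T cells, regulatory T cells (Treg) and mast-like cells, each set apart by raw counts of marker genes.

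The cells were live CD45+ cells, that is white blood cells, sorted from tumours growing under the skin of mice 6 to 8 weeks old. One library came from CD94-KO mice on the C57BL/6J background, named for the loss of CD94, a lectin-like receptor encoded by Klrd1 that pairs with NKG2 receptors on NK cells and some T cells. The other library came from WT C57BL/6J mice. The design text gives 5 tumour-bearing mice, without saying whether per library, and neither the tumour line nor the kind of deletion is given in the sources used here. With 1 library per genotype there is no replicate, so no test between genotypes was possible. All intervals below are exact 95% intervals that cover counting error only, not the spread between mice. Those of CPM and of ratios count each UMI as a separate draw, so they also leave out the spread between cells.

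The CD94-KO library held 46107433 unique molecular identifiers (UMIs, each standing for 1 captured RNA molecule) in 5175 barcodes, and the WT library 40261366 in 5358. After filtering, 4574 CD94-KO cells with a median of 7799 UMIs and 4388 WT cells with a median of 4768.5 UMIs remained. The libraries shared 8 barcodes, 4 of them among the cells kept. Klrd1 itself was read in both libraries. NK-gated cells had 332 CPM (a gene's UMIs scaled to a common total) in the CD94-KO library, against 688 CPM in the WT library. These libraries read the 3′ ends of transcripts, which may lie outside the deleted part, so the Klrd1 counts do not check the genotype labels.

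As background, a killer cell that binds its target releases its granules into the contact zone. Perforin forms pores, and the granzymes that pass through cut proteins inside the target. Granzyme A and granzyme K cut after basic residues. Granzyme B cuts after aspartate, as caspases do, and starts apoptosis. Granzymes C to G are rodent paralogues of granzyme B whose substrates are less well known. NK cells and cytotoxic T cells are the main sources of all of them, while granzyme B is also made by activated regulatory T cells and, in mice, by mast cells and basophils.

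The members sit at 3 places in the mouse genome (mm10, gene models of GENCODE M21). Gzma (ENSMUSG00000023132) lies at chr13:113093825-113100981 and Gzmk (ENSMUSG00000042385) at chr13:113171608-113225908, both on the minus strand. Prf1 (ENSMUSG00000037202) lies at chr10:61297833-61304680 on the plus strand. The other 6 form a cluster of 145 kb on the minus strand of chromosome 14, with Gzme (ENSMUSG00000022156) at chr14:56117626-56120625, Gzmd (ENSMUSG00000059256) at chr14:56129556-56132608, Gzmg (ENSMUSG00000040284) at chr14:56156582-56159579, Gzmf (ENSMUSG00000015441) at chr14:56205263-56211417, Gzmc (ENSMUSG00000079186) at chr14:56231441-56234656 and Gzmb (ENSMUSG00000015437) at chr14:56258838-56262260. Each granzyme gene has 5 exons in its first listed transcript, and Prf1 has 2.

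The promoters of the chromosome 14 cluster are shown because Gzmd, Gzme and Gzmg were read mostly in cells that also had Gzmc, as described further on, while their neighbour Gzmb was read in most NK cells. Each line gives the 250 bases before the RefSeq start, read 5′ to 3′ on the minus strand (RefSeq, GRCm38.p6), at chr14:56234658-56234907 for Gzmc, chr14:56211408-56211657 for Gzmf, chr14:56159580-56159829 for Gzmg, chr14:56132594-56132843 for Gzmd, chr14:56120626-56120875 for Gzme and chr14:56262335-56262584 for Gzmb. Capitals mark matches, on either strand, to the letters of 4 motifs: TGTGGT (RUNX), TGACGTCA (the CREB and ATF palindrome), TCACAC (a T-box half-site) and TGANTCA (AP-1).
Gzmc: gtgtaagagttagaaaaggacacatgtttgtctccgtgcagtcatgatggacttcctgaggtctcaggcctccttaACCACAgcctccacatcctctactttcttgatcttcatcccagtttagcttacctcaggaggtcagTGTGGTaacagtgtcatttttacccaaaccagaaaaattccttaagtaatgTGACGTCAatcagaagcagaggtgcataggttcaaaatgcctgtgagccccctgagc
Gzmf: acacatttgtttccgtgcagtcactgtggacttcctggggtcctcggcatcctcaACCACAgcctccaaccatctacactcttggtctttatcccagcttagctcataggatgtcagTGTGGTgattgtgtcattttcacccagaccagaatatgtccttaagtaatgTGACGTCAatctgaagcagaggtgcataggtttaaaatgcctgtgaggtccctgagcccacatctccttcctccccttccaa
Gzmg: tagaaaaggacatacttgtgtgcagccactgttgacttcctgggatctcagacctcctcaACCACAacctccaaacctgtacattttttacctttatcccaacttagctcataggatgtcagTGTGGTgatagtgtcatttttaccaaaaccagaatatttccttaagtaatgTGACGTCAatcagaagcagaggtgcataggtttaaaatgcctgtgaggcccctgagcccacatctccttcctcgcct
Gzmd: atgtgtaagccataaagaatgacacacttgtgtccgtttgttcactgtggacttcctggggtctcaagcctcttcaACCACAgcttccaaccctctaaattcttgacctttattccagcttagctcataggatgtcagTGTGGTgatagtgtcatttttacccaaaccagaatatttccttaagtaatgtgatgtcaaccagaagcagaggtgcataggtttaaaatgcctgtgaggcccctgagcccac
Gzme: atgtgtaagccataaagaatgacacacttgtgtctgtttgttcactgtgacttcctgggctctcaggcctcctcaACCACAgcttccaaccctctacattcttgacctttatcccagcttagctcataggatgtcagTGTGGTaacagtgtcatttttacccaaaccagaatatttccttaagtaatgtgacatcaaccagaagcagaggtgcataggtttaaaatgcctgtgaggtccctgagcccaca
Gzmb: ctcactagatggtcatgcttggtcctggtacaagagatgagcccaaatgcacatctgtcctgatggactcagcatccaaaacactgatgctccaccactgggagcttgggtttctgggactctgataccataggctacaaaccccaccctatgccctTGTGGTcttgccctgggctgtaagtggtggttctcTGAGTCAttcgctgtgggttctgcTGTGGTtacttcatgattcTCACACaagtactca

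The 5 promoters of Gzmc to Gzmg were alike. Gzmd and Gzme were the closest pair, with 94.8% identity over the aligned window, followed by Gzmf and Gzmg with 82.7%. Gzmc shared 81.8% with Gzme and 71.5% with Gzmf. Identity between Gzmb and any of these 5 was 47.3% to 52.2%. The RUNX letters occurred in the promoters of 8 of 9 members, Gzmk being the exception, against 14.05% of the 32851 mouse promoters of the same length. All 5 of Gzmc to Gzmg held them at 2 positions. The CREB and ATF palindrome was present in Gzmc, Gzmf and Gzmg, against 1.55% of promoters, and those exact letters were not in the Gzmd and Gzme windows. The T-box letters (12.3% of promoters) were present in Gzmb and Gzmk, and the AP-1 letters (6.75%) in Gzmb. A match is a description of letters, not a bound site. The transcripts are similar too: the last 500 bases of Gzmd and Gzme are 89.4% identical. In that stretch 7 of 411 windows of 90 bases were shared between Gzmd and Gzme, and none among the other pairs. Reads from such a shared window cannot be assigned to 1 of the genes, so the split between Gzmd and Gzme is slightly uncertain.

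NK cells held much of what was read. The NK gate (at least 2 UMIs of Ncr1 and Klrb1c together, at most 1 CD3 UMI) took 327 CD94-KO and 246 WT cells, which carried 58.8% (CD94-KO) and 49.5% (WT) of all Gzma UMIs, 61.3% and 55.8% of Gzmc, and 60.5% and 50.2% of Prf1. The NK share was smaller for Gzmk, of which CD8 T-gated cells held 37.9% in the CD94-KO library and 53.3% in the WT library, for Gzmf, with 25.8% in CD94-KO and 16.0% in WT NK cells, and for Gzmg, with 30.9% and 12.5%. Gzmb was spread more widely, with 48.5% of its UMIs in CD94-KO NK cells and 30.9% in WT NK cells. Ungated cells, which met no gate in full, held a further 31.8% of the Gzma UMIs in the CD94-KO and 37.1% in the WT library. Of them 123 CD94-KO and 174 WT cells had NK or T markers past the gate but over 3 macrophage UMIs, and these held 14.7% (CD94-KO) and 36.7% (WT) of the ungated Gzma UMIs. A larger group was 1888 CD94-KO and 2502 WT ungated cells low in all these markers. They had at most 1 CD3 UMI, at most 1 of Ncr1 and Klrb1c, and at most 3 macrophage UMIs. These cells held 79.7% (CD94-KO) and 54.3% (WT) of the ungated Gzma UMIs, read in 451 and 741 of them. The group's median depth was 4317 UMIs in the CD94-KO and 1002 in the WT library, and how many were NK cells was not tested. Macrophage-gated cells, which should lack these genes, gave the level of background. They had a median of 11650 UMIs in the CD94-KO and 12861.5 in the WT library, and NK cells 6555 and 7947.5. At an equal depth of 1000 UMIs per cell, 2.07% of CD94-KO and 2.31% of WT macrophages had a Gzma UMI, 0.648% and 2.02% a Gzmb UMI, and 1.68% and 2.89% a Gzmc UMI.

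**Figure D1:**
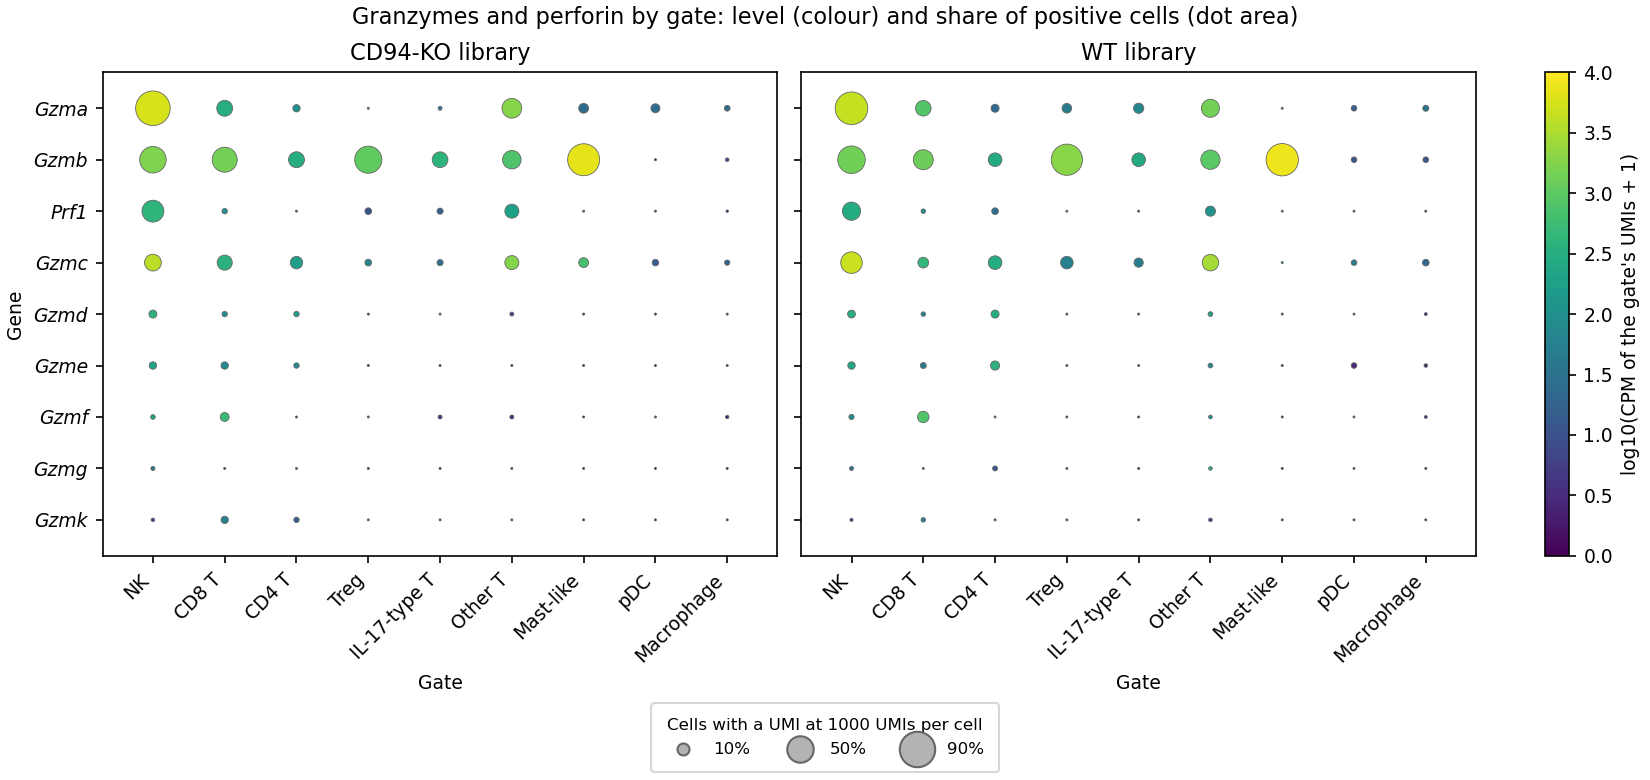
Level and share of positive cells for each gene (rows) in each gate (columns), with the CD94-KO library on the left and the WT library on the right; colour is log10(CPM + 1) of the gate's summed UMIs and dot area the percentage of cells with a UMI after thinning to 1000 UMIs. The Gzma dots are largest in the NK gate, followed by the other T gate, the Gzmb dots are large in the NK, CD8 T, Treg and mast-like gates, and the Gzmd to Gzmk dots are small everywhere.

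Counts of 3′ tags do not grow with transcript length, so the levels of different members can be set side by side. Gzma, the granzyme A gene, stood at 5714 CPM (5626 to 5803) in CD94-KO NK cells, where 94.2% of cells had a UMI, and at 4524 CPM (4441 to 4608) in WT NK cells, where 90.7% did. The ratio of CD94-KO to WT was 1.26 (1.23 to 1.29). Gzmb followed at 1688 CPM (1641 to 1737) in CD94-KO NK cells and 1372 CPM (1326 to 1418) in WT NK cells, a ratio of 1.23 (1.18 to 1.29). Its positive share was 84.7% in CD94-KO and 86.2% in WT NK cells. The Gzmb ratio was 0.957 when every cell was thinned to 1000 UMIs, so its direction depends on how cells of different depth are weighted. Prf1 stood at 393 CPM (370 to 417) in CD94-KO NK cells and 276 CPM (256 to 297) in WT NK cells, a ratio of 1.43 (1.29 to 1.57). Over 11 alternative settings the Prf1 ratio ran between 1.31 and 1.503, just past 1.5-fold, and that of Gzma between 1.04 and 1.38.

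In all, 1 of the 9 members was higher in CD94-KO NK cells by at least 1.5-fold, and none was lower. The background for that count is that 12.9% of the 8968 genes with at least 20 UMIs were higher and 4.46% lower by that factor. The member was Gzmf, whose UMIs came from few cells, as given below. With TMM scaling, which shifts the NK comparison by -0.12 on the log2 scale, 750 genes were higher and 602 lower, against 1153 and 400 without it. The median of all genes tested was 0.10 on the log2 scale, and the values of Gzma (0.34), Gzmb (0.30) and Prf1 (0.51) stand beside it.

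Shares of positive cells at equal depth set the genes apart. After thinning each cell to 1000 UMIs, 85.9% of 326 CD94-KO NK cells had a Gzma UMI (81.6% to 89.5%), against 76.3% of 245 WT NK cells (70.5% to 81.5%). These intervals do not overlap, but they count the cells of 1 library per genotype. The share of all genes with such a gap is not given here. The mean of thinned Gzma UMIs was closer, at 6.66 per CD94-KO cell and 6.40 per WT cell. For Prf1 the shares were 34.0% in CD94-KO (28.9% to 39.5%) and 23.7% in WT cells (18.5% to 29.5%), with intervals that just overlap. The intervals also overlapped for Gzmb, with 50.3% in CD94-KO (44.7% to 55.9%) and 54.3% in WT cells (47.8% to 60.6%). Gzmc ran the other way. It was read in 19.9% of CD94-KO NK cells (15.7% to 24.7%) and in 33.1% of WT NK cells (27.2% to 39.3%), and these intervals do not overlap. The limits given for Gzma hold here too. The Gzmc share was also lower in CD94-KO than in WT macrophages (1.68% and 2.89%) and ungated cells (3.19% and 7.89%). It ran the other way in CD8 T cells (16.1% and 7.95%) and in the small mast-like and plasmacytoid dendritic cell gates. The thinned share of Klrd1 in NK cells was 31.0% in CD94-KO and 47.8% in WT cells.

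**Figure D2:**
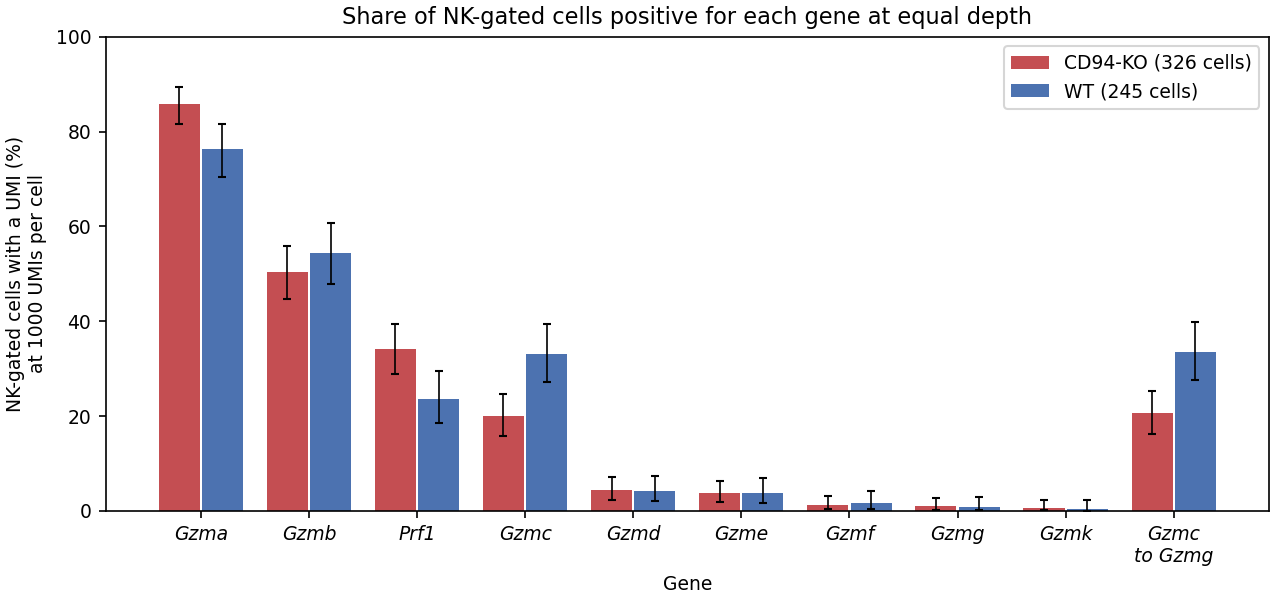
Percentage of NK-gated cells with at least 1 UMI of each gene after thinning to 1000 UMIs per cell, in 326 CD94-KO (left bars) and 245 WT cells (right bars), with exact 95% binomial intervals. Gzma and Prf1 bars are taller in CD94-KO cells, the Gzmc bars and those of Gzmc to Gzmg together are taller in WT cells (20.6% in CD94-KO, 33.5% in WT), and Gzmd to Gzmk stay under 5% in both.

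Gzmc, the most abundant of the 5 cluster paralogues, was carried by fewer cells. It stood at 3810 CPM (3738 to 3883) in CD94-KO NK cells and 4752 CPM (4666 to 4838) in WT NK cells, a ratio of 0.802 (0.781 to 0.823). Before thinning, 35.2% of CD94-KO and 54.1% of WT NK cells had a Gzmc UMI. Those UMIs were concentrated: the 10 cells with most Gzmc held 48.1% of it in the CD94-KO and 50.4% in the WT library. For Gzma the top 10 cells held 14.3% in the CD94-KO and 17.9% in the WT library, and for Prf1 19.5% and 25.5%. The highest NK cell had 699 Gzmc UMIs in the CD94-KO library and 952 in the WT library, while the median positive cell had 9 in both.

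The remaining paralogues were more concentrated still. Gzmd had 377 CPM in 21 positive CD94-KO cells and 319 CPM in 24 positive WT cells, and its top 10 cells held 91.9% and 86.9% of the UMIs. Gzme had 217 CPM in 19 CD94-KO cells and 233 CPM in 20 WT cells. For Gzmf the values were 212 CPM in 8 CD94-KO cells and 88.1 CPM in 14 WT cells, a ratio of 2.41 (2.06 to 2.82). A single cell held 50.3% of the Gzmf UMIs in CD94-KO NK cells and 71.4% in WT NK cells, and the mean over cells of per-cell CPM gave a ratio of 0.796. The direction of Gzmf thus depended on how cells were weighted. Gzmg had 113 UMIs in 11 CD94-KO cells and 67 UMIs in 6 WT cells. Gzmk had 13 UMIs in 11 CD94-KO cells and 10 UMIs in 7 WT cells.

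**Figure D3:**
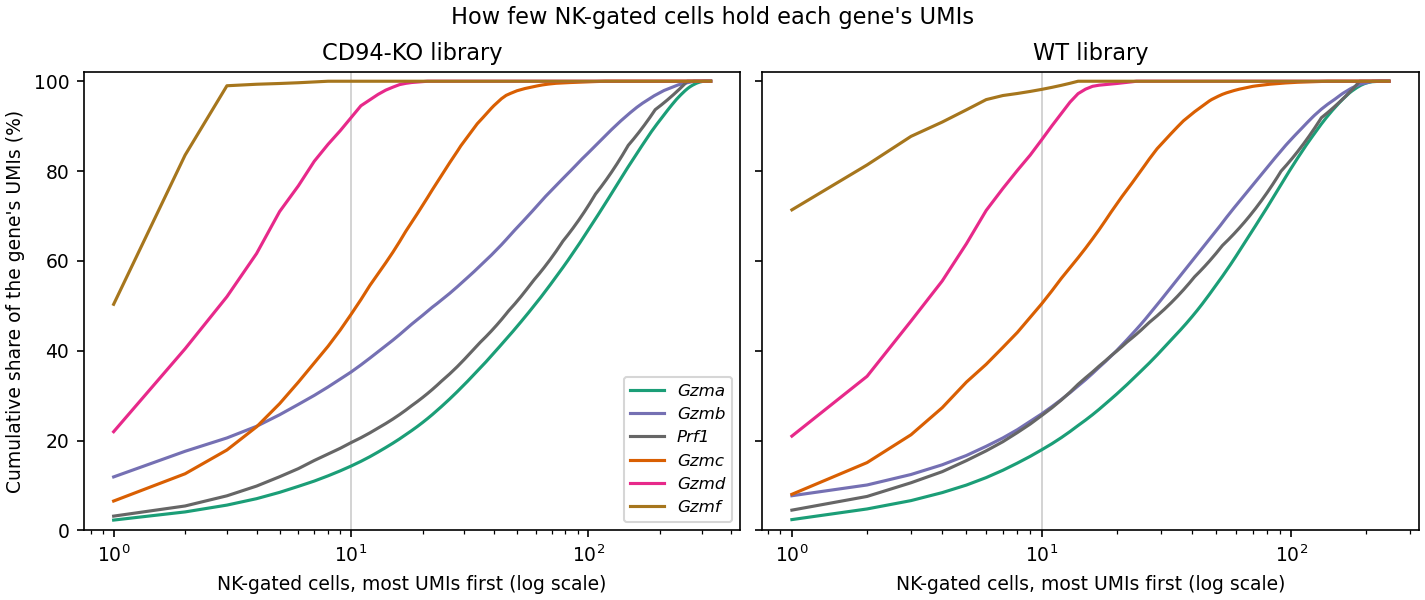
Cumulative percentage of each gene's UMIs (y axis) held by NK-gated cells taken from the one with most UMIs onward (x axis, log scale), in the CD94-KO (left) and WT (right) library; the grey line marks 10 cells. At 10 cells the Gzma curve is at 14.3% in CD94-KO and 17.9% in WT cells, the Gzmc curve near 50%, and the Gzmd and Gzmf curves lie above 85%.

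Because so few cells carry these genes, a limit of the gate mattered. In the CD94-KO library 2 cells passed every NK rule except the limit on mast cell genes. The first had 40775 UMIs, among them 7 of Ncr1 and Klrb1c and 1 each of Cpa3 and Mcpt8, 2 genes of mast cells and basophils. It alone held 1345 Gzmf UMIs, 58.1% of the Gzmf of the whole library, with 1149 of Gzmc, 369 of Gzmd, 215 of Gzmg and none of Gzma. The second had 621 Gzmc UMIs and 8 UMIs of 3 mast cell genes. No WT cell was left out for this reason. Summed over Gzmc to Gzmg, the NK gate as defined gave 4656 CPM (4577 to 4737) in CD94-KO cells and 5419 CPM (5328 to 5511) in WT cells, with a ratio of 0.859 (0.839 to 0.880). With these 2 cells put back the values were 5876 CPM in CD94-KO cells, against 5419 CPM in WT cells, with a ratio of 1.08 (1.06 to 1.11). The direction of the summed level thus turned on 2 cells, while the share of NK-gated cells positive for Gzmc is a count of cells, to which they add 2.

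Single NK cells usually carried several members at once. Counting every UMI, 28.4% of CD94-KO and 37.8% of WT NK cells had Gzma, Gzmb, Prf1 and a Gzmc to Gzmg gene together. The combination of Gzma, Gzmb and Prf1 without the paralogues was found in 38.8% of CD94-KO and 24.0% of WT NK cells. The direction of the 4-part pattern turned when cells were thinned to 1000 UMIs. It was then read in 4.91% of CD94-KO (2.83% to 7.85%) and 3.67% of WT cells (1.69% to 6.86%), with overlapping intervals. Gzma, Gzmb and Prf1 without the paralogues kept its direction, with 13.8% in CD94-KO and 8.57% in WT cells. At 1000 UMIs per cell the commonest patterns were Gzma alone (25.2% of CD94-KO, 18.4% of WT cells) and Gzma with Gzmb (22.7% and 21.6%). Gzmb with a Gzmc to Gzmg gene, but neither Gzma nor Prf1, was read in 1.53% of CD94-KO NK cells and 5.71% of WT NK cells at that depth. Adding Gzma to that pattern gave 4.60% in CD94-KO and 10.6% in WT cells. None of these genes was read in 4.91% of CD94-KO cells, against 6.53% in WT.

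The rarer paralogues were often read in the same cells. Of the Gzmd-positive NK cells, 16 of 21 in the CD94-KO library (76.2%) and 18 of 24 in the WT library (75%) also had Gzme, against 0.980% and 0.901% of the Gzmd-negative cells. Gzmc was present in 18 of the 21 CD94-KO and 22 of the 24 WT Gzmd-positive cells. Of the same Gzmd-positive cells, Gzmg was read in 9 of 21 in the CD94-KO and 5 of 24 in the WT library, and Gzmf in 4 of 21 and 7 of 24. Gzmd and Gzme are the pair with the most alike promoters printed above, and also the pair whose transcripts share windows. Cells with at least 3 distinct paralogues, 18 in the CD94-KO and 19 in the WT library, held 68.3% of the Gzmc to Gzmg UMIs in CD94-KO and 63.9% in WT NK cells. They were deeper than the rest, with a median of 21368.5 UMIs in CD94-KO and 22469 in WT cells, against 6321 and 7422 in cells with fewer, so depth moves with the number of paralogues read.

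**Figure D4:**
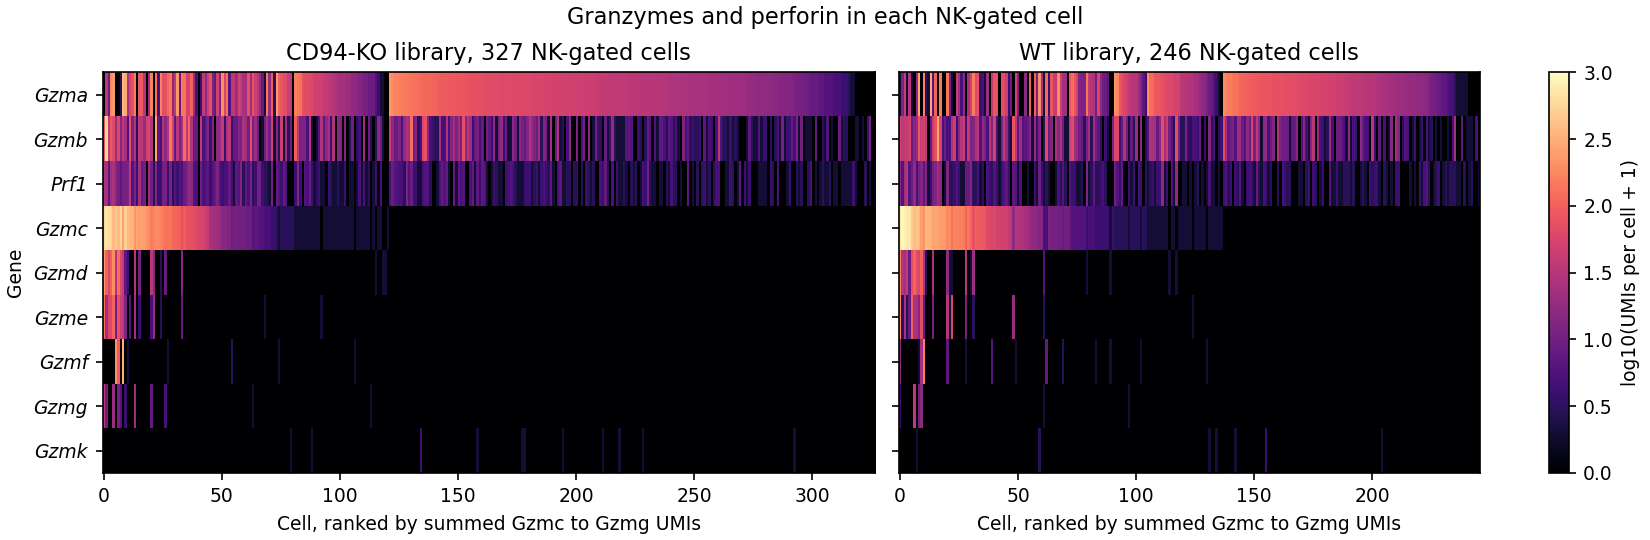
UMIs of each gene (rows, log10 scale) in every NK-gated cell (columns), ranked by the summed Gzmc to Gzmg UMIs, for 327 CD94-KO cells (left) and 246 WT cells (right). Gzmd, Gzme and Gzmg appear almost only at the left end, where their own UMIs help to place the cells because they are part of the sum. Gzma, Gzmb and Prf1 run across nearly all cells, with gaps in Gzma among the cells with the largest sums.

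NK cells rich in Gzmc to Gzmg differed from the rest in other members too. Cells with at least 5 such UMIs after thinning numbered 36 of 326 (11.04%, 7.86% to 15.0%) in the CD94-KO library and 40 of 245 (16.3%, 11.9% to 21.6%) in the WT library. Gzma was lower in these rich cells than in cells with none, at 4424 against 6525 CPM in the CD94-KO and 2250 against 6027 CPM in the WT library. Cells with 1 to 4 thinned UMIs, 31 in the CD94-KO and 42 in the WT library, had 3834 CPM of Gzma in CD94-KO and 4405 CPM in WT cells, so Gzma did not run in order over the 3 classes in the CD94-KO library. Gzmb was higher, at 2958 against 1204 CPM in CD94-KO cells and 1550 against 1257 CPM in WT cells. Prf1 was also higher, at 535 against 328 CPM in CD94-KO cells and 351 against 248 CPM in WT cells. The rich cells were much deeper, with a median of 18591 UMIs in CD94-KO and 17682.5 in WT cells, against 5807 and 6451 in cells with none, and the part of this depth in the differences was not tested.

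Genes with at least 100 UMIs over both libraries were ranked by their fold between rich cells and cells with none, taking the smaller of the libraries' folds of CPM plus 5. The first 12 in each direction are given with the CD94-KO fold before the WT fold. Higher in rich cells were Tnfsf11, the cytokine RANKL (9.59-fold in CD94-KO, 11.8-fold in WT), the unconventional myosin Myo10 (14.1-fold and 9.84-fold), the interferon-induced membrane proteins Ifitm1 (6.29-fold and 7.46-fold) and Ifitm2 (6.26-fold and 7.21-fold), the semaphorin Sema6d (5.60-fold and 6.61-fold), the growth factor Pdgfa (5.05-fold and 6.16-fold) and Spp1, which encodes osteopontin (8.02-fold and 5.11-fold). The others were genes of dividing cells: Birc5 (13.8-fold and 5.37-fold), the histones Hist1h3c (11.99-fold and 6.24-fold) and Hist1h2ae (11.01-fold and 5.21-fold), Ube2c (6.40-fold and 5.16-fold) and Tyms (4.97-fold and 4.58-fold). A minority of rich cells carried them. Unthinned positive shares in rich CD94-KO and WT cells were 19.4% and 20% for Birc5, 22.2% and 17.5% for Hist1h3c and 25% and 17.5% for Hist1h2ae. They were 25% and 22.5% for Ube2c and 30.6% and 40% for Tyms. In the shallower cells with none, Hist1h2ae was read in 8.11% of CD94-KO and 15.3% of WT cells, and each of the others in at most 7.36%. Of the 7 measured genes of a cell cycle list of 10, 6 were higher by at least 1.5-fold in both libraries and none lower, beside 3.97% of the 4608 genes compared higher and 17.8% lower. The list's median log2 difference was 1.96 in CD94-KO and 1.56 in WT cells, against -0.17 and -0.24 over all genes.

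Lower in the rich cells were the chemokine genes Ccl5, at 26.0 against 4992 CPM in CD94-KO cells and 23.7 against 4909 CPM in WT cells, and Ccl3, at 24.6 against 240 CPM in CD94-KO cells and 3.75 against 134 CPM in WT cells. Itgam, the integrin CD11b of mature NK cells, was at 8.67 against 75.5 CPM in CD94-KO cells and 6.25 against 66.4 CPM in WT cells. The trafficking genes S1pr1 (0.186-fold in both libraries) and Klf2 (0.221-fold in CD94-KO, 0.0724-fold in WT) were lower as well. Adgre5 (0.150-fold and 0.164-fold), Cd7 (0.184-fold and 0.121-fold), the chymase gene Cma1 (0.147-fold and 0.199-fold), the cytokine signal inhibitor Socs3 (0.164-fold and 0.199-fold), Pde2a (0.223-fold and 0.218-fold), Nfkbiz (0.226-fold and 0.225-fold) and the noncoding Mirt1 (0.169-fold and 0.231-fold) made up the rest. Of 7 measured NK maturation genes, 4 were lower by at least 1.5-fold in both libraries and none was higher by that factor in both. The list was not uniform. Klrg1 was higher in the rich cells (1.97-fold in CD94-KO, 1.36-fold in WT), and Ly6c2 was lower in CD94-KO (0.572-fold) and higher in WT cells (1.95-fold). Of 15 measured regulators of effector genes, 9 were lower and 1, Ikzf2, was higher. Of 5 measured genes of tissue-resident innate cells, 3 were higher in both libraries, Itga1, Tmem176a and Tmem176b, and 1, Cd69, was lower. That list's median log2 difference was 0.71 in CD94-KO and 0.93 in WT cells, against -0.17 and -0.24 over all genes. Of all 4608 genes compared, 17.8% were lower and 3.97% higher. Eomes, a T-box factor of NK cells, stood at 132 against 332 CPM in CD94-KO cells and 71.2 against 247 CPM in WT cells. The NK marker Klrb1c was lower (210 against 438 CPM in CD94-KO, 176 against 385 CPM in WT) and Ncr1 was not past 1.5-fold in either library.

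Within the rich class, ratios of CD94-KO over WT are given for each member but Gzmk, which had 1 UMI there. The share of all genes with a ratio above 1 in this class is not given here, so the members' common direction has no background. The class was cut on the thinned Gzmc to Gzmg sum, so the ratios of those genes come from values that chose the cells. Rich CD94-KO cells had 4424 CPM of Gzma and rich WT cells 2250 CPM, a ratio of 1.97 (1.86 to 2.09). For Gzmb the ratio was 1.91 (1.78 to 2.05), for Prf1 1.52 (1.30 to 1.79), for Gzmd 1.55 (1.41 to 1.697), for Gzme 1.25 (1.11 to 1.40), for Gzmg 1.95 (1.42 to 2.68) and for Gzmf 3.33 (2.83 to 3.92). The ratio nearest to 1 was that of Gzmc, at 14095 CPM in rich CD94-KO cells and 13531 CPM in rich WT cells, a ratio of 1.04 (1.01 to 1.07); Gzmc was also the main gene that put cells in this class. In cells with no thinned Gzmc to Gzmg UMI the ratio was 1.08 for Gzma (1.05 to 1.12), 0.957 for Gzmb (0.897 to 1.02) and 1.32 for Prf1 (1.15 to 1.52). In the class between, with 1 to 4 thinned UMIs, the ratio was 0.870 for Gzma (0.809 to 0.936), which is the other direction, 1.23 for Gzmb (1.10 to 1.39), 2.10 for Prf1 (1.61 to 2.74) and 1.31 for Gzmc (1.19 to 1.45). The rich class holds 36 CD94-KO and 40 WT cells, and a cell with much of 1 gene can carry such a ratio: the top CD94-KO NK cell for Gzmb had 565 of its UMIs. Gzmf was read in 13.9% of the rich CD94-KO and 17.5% of the rich WT cells.

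CD8 T cells showed a different order of members. Gzmb led, at 1421 CPM (1323 to 1525) in 56 CD94-KO cells and 1266 CPM (1196 to 1338) in 88 WT cells, with 60.7% and 61.4% of cells positive, and the ratio was 1.12 (1.02 to 1.23). At 1000 UMIs per cell 44.6% of CD94-KO CD8 T cells (31.3% to 58.5%) and 28.4% of WT CD8 T cells (19.3% to 39.0%) had a Gzmb UMI, and the intervals overlap. Gzma stood at 312 CPM in CD94-KO cells, against 828 CPM in WT cells, with a ratio of 0.377 (0.318 to 0.445). A single WT cell held 36.5% of the WT Gzma UMIs, and the mean of per-cell CPM gave a ratio of 0.914. Gzmf stood at 493 CPM in 4 positive CD94-KO cells and 784 CPM in 13 positive WT cells, a ratio of 0.628 (0.545 to 0.723), or 0.694 with cells thinned to 1000 UMIs. Beside the 212 CPM of CD94-KO NK cells the CD8 T level was higher, but with the 2 cells left out for mast cell genes those NK cells had 677 CPM. Gzmk was higher here than in NK cells of either library. It stood at 60.2 CPM in CD8 T cells of the CD94-KO library, 14 of them positive, and at 57.02 CPM in those of the WT library, 23 of them positive. NK cells had 4.62 CPM in the CD94-KO library and 4.004 CPM in the WT library.

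Prf1 was lower in CD8 T than in NK cells of both libraries, at 87.6 CPM in CD94-KO cells, against 89.6 CPM in WT CD8 T cells. Gzmc was at 356 CPM in CD94-KO cells, against 450 CPM in WT cells, with a ratio of 0.791 (0.665 to 0.938) that was 1.45 without the 10 cells with most UMIs. At 1000 UMIs per cell 16.1% of CD94-KO and 7.95% of WT CD8 T cells had a Gzmc UMI. Gzmd had 48 UMIs in CD94-KO cells, 47 of them in 1 cell, and 62 in WT cells. Gzme had 40 UMIs in CD94-KO cells, 38 of them in 1 cell, and 45 in WT cells, and its ratio of 1.59 (1.01 to 2.49) was 1.14 as a mean of per-cell CPM. Of 8 measured members in CD8 T cells 1 was higher, Gzme, and 2 were lower, Gzma and Gzmf, in the CD94-KO library by at least 1.5-fold, beside 11.3% of 6231 genes higher and 10.9% lower.

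Regulatory T cells carried Gzmb and little else of the family. Gzmb stood at 1051 CPM (921 to 1194) in 34 CD94-KO Treg cells and 1931 CPM (1814 to 2053) in 66 WT Treg cells, a ratio of 0.544 (0.470 to 0.628). Nearly the same share of cells was positive, 79.4% in CD94-KO and 81.8% in WT cells, while the median positive cell had 5 UMIs in CD94-KO and 14.5 in WT cells. Thinned to 1000 UMIs, 52.9% of CD94-KO (35.1% to 70.2%) and 69.8% of WT Treg cells (56.98% to 80.8%) had a Gzmb UMI, and the intervals overlap. The ratio was between 0.298 and 0.586 over 9 alternative settings, lower past 1.5-fold in each. The macrophage marker list summed to 1051 CPM in CD94-KO cells, against 1234 CPM in WT Treg cells, and the B cell marker list to 8.91 CPM in CD94-KO cells, against 136 CPM in WT Treg cells; their part in the result was not tested. Gzma had 5 UMIs in CD94-KO and 24 in WT Treg cells, and its unthinned positive share of 14.7% in CD94-KO and 15.2% in WT cells was below the 15.8% and 22.7% of macrophages, which were deeper. Gzmc had 15 UMIs in CD94-KO and 28 in WT cells, and Prf1 2 in CD94-KO and 15 in WT cells. No Gzmd UMI was read, which allows a share of positive cells of up to 8.82% in CD94-KO and 4.55% in WT Treg cells. In the Treg gate 2 of 3 measured members, Gzmb and Gzma, were lower by at least 1.5-fold and none higher, where 14.2% of 4597 genes were lower and 16.2% higher.

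**Figure D5:**
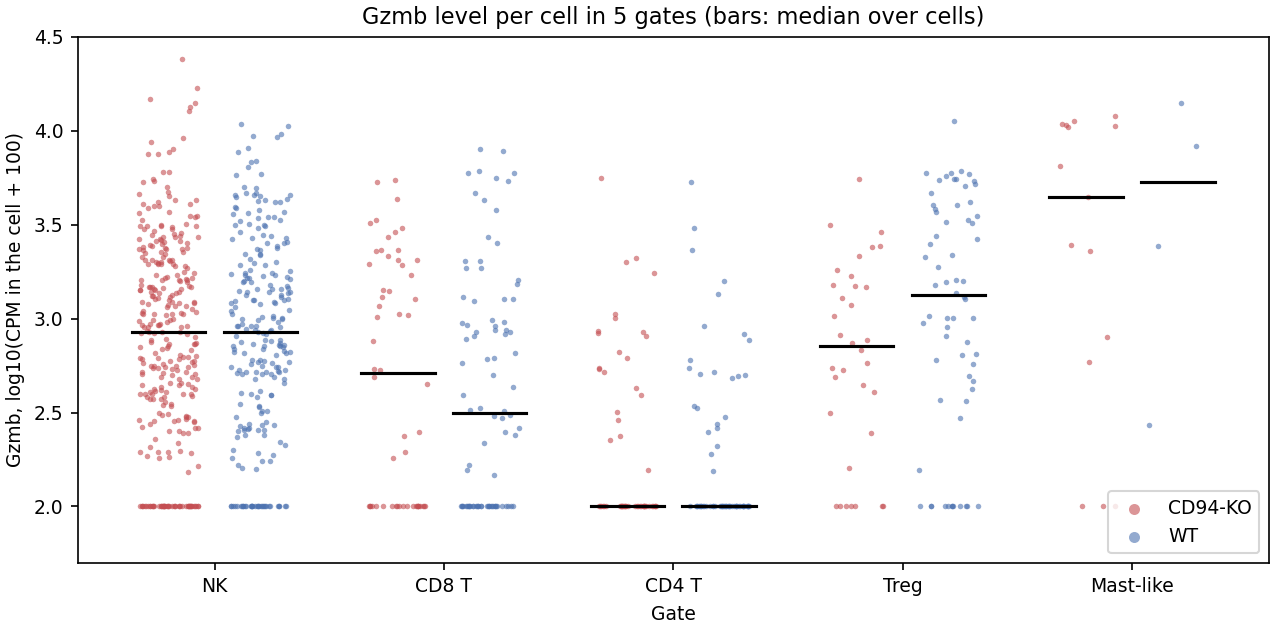
Gzmb level in every cell of 5 gates as log10(CPM in the cell + 100), CD94-KO cells at the left and WT cells at the right of each pair, with a bar at the median over cells. The medians lie close in NK cells (745 CPM in CD94-KO, 751 CPM in WT), lower in CD94-KO Treg cells (612 CPM, against 1235 CPM in WT), and 0 in CD4 T cells of both libraries.

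CD4 T cells without Foxp3 were mostly low. Gzmb stood at 297 CPM (246 to 356) in the 56 CD94-KO cells, against 263 CPM (221 to 311) in the 69 WT cells, with 39.3% and 34.8% of cells positive. At equal depth 17.9% of CD94-KO and 13.0% of WT CD4 T cells had a Gzmb UMI, above the macrophage shares given earlier. Gzmc to Gzmg summed to 409 CPM in CD94-KO cells, against 968 CPM in WT cells, and in the CD94-KO library 1 cell held 77.0% of it. That cell had 5 UMIs of Ncr1 and Klrb1c beside 18 of CD3 genes and 2 of Cd4, and the gate set no limit on NK markers. Gzmc alone had 66 UMIs in CD94-KO cells, of which 1 cell held 74.2%, and 154 in WT cells, of which 1 cell held 82.5%. Its ratio of 0.575 was 0.738 as a mean of per-cell CPM, which is not past 1.5-fold. Gzme had 28 UMIs in 5 CD94-KO cells and 198 UMIs in 7 WT cells, and Gzmd 63 UMIs in 4 CD94-KO and 150 UMIs in 6 WT cells. Gzma had 38 UMIs in CD94-KO and 12 in WT cells, with a ratio of 4.25 (2.17 to 8.93) that was 0.940 without the limit on myeloid markers and 1.08 without doublet removal. The unthinned positive share for Gzma, 25% in CD94-KO and 17.4% in WT CD4 T cells, stood beside 15.8% and 22.7% in macrophages. At equal depth the share was 3.57% in CD94-KO (0.435% to 12.3%) and 4.35% in WT CD4 T cells (0.906% to 12.2%). Macrophages had 2.07% and 2.31%, inside those intervals. Perforin was read 6 times in CD94-KO and 14 times in WT cells. Of 6 measured members 1 was higher, Gzma, and 4 were lower by at least 1.5-fold, Gzmc, Gzmd, Gzme and Prf1, beside 18.4% of 5030 genes higher and 9.62% lower.

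The mast-like gate was the densest in Gzmb but held few cells. Gzmb stood at 6768 CPM (6231 to 7339) in 15 CD94-KO cells, 12 of them positive, and at 8020 CPM (7132 to 8988) in 4 WT cells, all positive, a ratio of 0.844 (0.733 to 0.974). A single cell held 46.3% of these UMIs in the CD94-KO and 58.1% in the WT library. The gate's markers did not separate mast cells from basophils: Mcpt8, a basophil protease gene, was read in 13 of the 15 CD94-KO cells and in all 4 WT cells. Tpsb2 and Mcpt4, mast cell protease genes, were each read in 2 CD94-KO cells and 1 WT cell, and Tpsab1 in none. The gate is therefore better called by its genes than as mast cells. The 13 CD94-KO cells with Mcpt8 had 507 Gzmb UMIs, and the 4 WT cells 296. Of these, cells that also had Tpsb2 or Mcpt4 were 1 in each library, with 271 Gzmb UMIs in the CD94-KO and 111 in the WT cell. Other members were nearly missing here: Prf1 had 1 UMI in each library, Gzma 2 in CD94-KO and 1 in WT cells, and Gzmd, Gzme, Gzmf, Gzmg and Gzmk none, which allows a positive share of up to 20% in CD94-KO and 75% in WT cells. Gzmc had 57 UMIs in CD94-KO cells, all in 1 cell, and 3 in WT cells. Plasmacytoid dendritic cells, gated by Siglech, had no Gzmb UMI in 36 CD94-KO cells, which allows a share of up to 8.33%, and 6 in 53 WT cells, a share of 11.3% that is below the 14.4% of WT macrophages.

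Other T cells, CD3-positive cells outside the named T gates, held a second pool of these transcripts. Those with at least 2 UMIs of Ncr1 and Klrb1c, 45 CD94-KO and 33 WT cells, had 1823 of the gate's 2079 Gzma UMIs in the CD94-KO library and 1623 of 1994 in the WT library. Their Gzma level was 3243 CPM in CD94-KO cells, against 4334 CPM in WT cells. A single WT cell held 880 of those UMIs, and without the cell with most Gzma in each library the levels were 2419 CPM in CD94-KO cells, against 2080 CPM in WT cells, so the direction turned. Prf1 was at 299 CPM in CD94-KO cells, with 80% of them positive, against 352.5 CPM in WT cells, with 60.6% positive. A single WT cell with 28 CD3 and 19 NK marker UMIs held 401 Gzmg UMIs, 74.8% of the Gzmg of the WT library, with 1545 of Gzmc and 284 of Gzmd. T cells with IL-17 programme markers carried Gzmb at 378 CPM in 127 CD94-KO cells and 272 CPM in 70 WT cells, and at equal depth 17.5% of the CD94-KO and 13.0% of the WT cells had a UMI. Gzmk was not read in them, which allows shares of up to 2.36% in CD94-KO and 4.29% in WT cells, and Prf1 had 11 UMIs in CD94-KO and 1 in WT cells.

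The genes that load, activate and restrain granzymes were compared between genotypes in NK cells. Of 13 genes for granule loading and release, 2 were higher in CD94-KO NK cells by at least 1.5-fold and none lower, a share near the 12.9% of all genes tested that were higher. They were Lyst, a regulator of granule size, at 61.2 CPM in CD94-KO cells, against 28.4 CPM in WT cells, and Stx11, a fusion protein, at 34.1 and 21.2 CPM. With TMM scaling Lyst was past 1.5-fold (ratio 1.98) and Stx11 was not (1.48). Serglycin (Srgn), the proteoglycan that holds granzymes in the granule, was at 1774 CPM in CD94-KO cells, against 1599 CPM in WT cells. Of 8 genes for activation and inhibition, none was higher and 1 was lower, the protease inhibitor Serpinb1a, at 3.91 CPM in CD94-KO cells, against 19.6 CPM in WT cells. It was read in 7 of 327 CD94-KO and 8 of 246 WT NK cells, and 1 WT cell held 40 of the 49 WT UMIs, so that value rests on 1 cell. Ctsc, whose product activates granzymes, was at 113 CPM in CD94-KO cells, against 94.5 CPM in WT cells, and Serpinb9, which encodes an inhibitor of granzyme B, at 619 and 503 CPM. Among other granule proteases Cma1 was higher, at 32.4 CPM in CD94-KO cells, against 14.4 CPM in WT cells. Gzmm was read 16 times in each library.

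Of 17 measured factors that control effector genes, 4 were higher in CD94-KO NK cells by at least 1.5-fold and none lower: Tbx21, which encodes T-bet, at 87.1 CPM in CD94-KO cells, against 52.4 CPM in WT cells, Eomes at 266 and 169 CPM, Nfil3 at 114 and 74.1 CPM, and Myc at 34.5 and 12.01 CPM. Without TMM, 12.9% of all genes were higher and 4.46% lower, a background for this list and those that follow. With TMM scaling 2 of the 17 were, Tbx21 (ratio 1.53) and Myc (2.64), while Eomes (1.44) and Nfil3 (1.42) were not, beside 8.36% of all genes higher and 6.71% lower. The list's median log2 difference was 0.36 without TMM, beside 0.10 over all genes tested. Of 12 cytokine receptor genes 1 was higher, Il15ra, with 22 UMIs in CD94-KO and 13 in WT cells, and with TMM none was. Of 10 maturation genes 5 were higher and 1 lower, beside 12.9% of all genes higher and 4.46% lower. Among the higher were Itga2 (18.1 CPM in CD94-KO, 8.81 CPM in WT, from 51 and 22 UMIs) and S1pr5 (7.47 and 2.002 CPM, from 21 and 5 UMIs). The lower gene was Ly6c2 (162 and 249 CPM), and under TMM 4 were higher and 1 lower. Of 9 measured genes of tissue-resident innate cells none was higher and 4 were lower, Cxcr6, Cd200r1, Tmem176a and Tmem176b, beside 4.46% of all genes; under TMM 5 were lower. Of 9 measured cell cycle genes none was higher and 3 were lower, Cdk1 (13.2 CPM in CD94-KO, 24.4 CPM in WT), Tyms (26.0 and 45.6 CPM) and Birc5 (24.5 and 38.8 CPM), and under TMM 5 were lower. Markers of other cells differed as well. Of 6 neutrophil markers 3 were measured, and 3 of 3 were higher. The whole list summed to 44.4 CPM for CD94-KO NK cells, against 21.6 CPM for WT. Il1r2 gave most of it, with 74 of 125 CD94-KO UMIs and 32 of 54 WT UMIs. Yet Il1r2 was read in 23 of 327 CD94-KO cells, a smaller share than 31 of 246 WT cells. S100a8 was read in 16 CD94-KO and 6 WT cells, and S100a9 in 11 and 5. Csf3r (7 and 8 UMIs) and Cxcr2 (1 and 2) were under the minimum and not higher, and Retnlg was not read. Of 4 measured fibroblast markers 3 were lower, among them Col3a1 at 7.11 CPM in CD94-KO cells, against 39.6 CPM in WT cells. Col3a1 rested on few cells, with 20 UMIs in 13 of 327 CD94-KO cells and 99 UMIs in 8 of 246 WT cells. Macrophage markers summed to 332 CPM in CD94-KO cells, against 355 CPM in WT NK cells. The part of these other cells in the lists above was not tested.

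Across 8 gates in 2 libraries, 16 points in all, the nearest genes by correlation of log2(CPM + 5) were ranked for Gzma, Gzmb, Prf1, Gzmk and the Gzmc to Gzmg sum. Klra3 was in 3 of these lists, and Xcl1 and Qrfp were in 2. These correlations describe points that share libraries and markers. For Gzma they were Tmprss6 (Pearson's r 0.951), Spry2 (0.950), Eomes (0.948), Sult2b1 (0.940) and Klra3 (0.935). Gzmb was most like Sytl2 (0.974), Pld3 (0.967), Il2rb (0.955), Gimap3 (0.955) and Abcb9 (0.953). Prf1 was most like the NK receptor gene Klra3 (0.967), Dapk2 (0.954), the chemokine gene Xcl1 (0.940), Klre1 (0.934) and Qrfp (0.932). The Gzmc to Gzmg sum was most like Xcl1 (0.962), Styk1 (0.960), Bcl2 (0.959), Klra3 (0.945) and Qrfp (0.945). Gzmk, which had 87 UMIs in all CD94-KO and 105 in all WT cells kept, had lower values, Taf2 (0.844), Rbm3 (0.820), Fam78a (0.770), Ndfip2 (0.763) and Sugt1 (0.747). Between members, Gzma was nearer to Prf1 (0.924) and Gzmc (0.923) than to Gzmb (0.621).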

How the data were processed

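Single-cell libraries of droplet 3′ tags were read for 1 CD94-KO and 1 WT library. The authors deposited UMI counts per gene and barcode, with Cell Ranger 5.0.0 named in them (per the file headers); mm10 and Seurat 4.0 are given in the submitters' processing notes. The annotation release is not given in the sources used here. Whether the pooled mice number 5 per library is not stated.

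From the counts, barcodes were kept (scanpy 1.11.5) if they had 500 or more UMIs, 300 or more genes and a mitochondrial share below 10%. Scrublet's automatic threshold called 0 CD94-KO and 1 WT barcodes, so the 4% with the highest doublet score in each library were removed. Cells were gated on raw UMIs. NK cells had at least 2 UMIs of Ncr1 and Klrb1c, at most 1 of CD3 genes, at most 3 of 5 macrophage genes and under 2 mast cell genes. T gates needed at least 2 CD3 UMIs and CD8, Cd4 or Foxp3. Macrophages had at least 10 UMIs of the macrophage genes. CPM is the gene's UMIs over the gate's total. Intervals are exact Poisson (CPM), Clopper-Pearson (shares) and conditional binomial (ratios), at 95%. Limits for a count of 0 use 3 counts. Genes with at least 20 UMIs over both libraries were measured, and called when the larger level was at least 1.5 times the smaller. Equal-depth shares used cells thinned to 1000 UMIs, leaving out shallower cells.

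The members and gene lists were chosen with earlier results of these data known. All 9 members were named. Other genes were named by a rule: the 5 nearest by correlation, the 12 largest folds in each direction between NK cells rich in Gzmc to Gzmg and those with none, and called members of the lists. Genes named beside them were chosen after their values were seen. The procedure was tested on simulated data. TMM factors came from edgeR 4.0.16, figures from matplotlib 3.10.9. Receptor segments were not used. One gene of the maturation list is not reported here by name.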

Additional observations from a re-analysis of the deposited data

How the results depend on the processing

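Log2 differences of CD94-KO over WT in NK cells were recomputed under 11 alternatives, the last chosen after seeing the data. Gzma (0.34) was 0.21 with TMM, 0.0589 thinned, 0.12 as a mean of per-cell CPM, 0.42 without the 10 cells with most UMIs and 0.47 with at least 1 NK marker UMI. Gzmb (0.30) was 0.18, -0.0639, 0.0416 and 0.11 under the first 4 of these and 0.42 with no CD3 UMI allowed. The Gzmc to Gzmg sum (-0.22) was -0.34 with TMM, -0.17 without doublet removal, -0.47 thinned, -0.46 per cell, -0.33 without the top 10 cells, -0.34 with no CD3 UMI, -0.13 with at least 1 NK marker UMI and 0.12 without the limit on mast cell genes. Gzmf reversed to -0.33 per cell, and Gzma in CD4 T cells to -0.0893 without the myeloid limit. Values not past 1.5-fold turned sign too: Gzmd in NK cells (0.24) was -0.37 per cell and -0.43 without the top 10 cells, Gzmg in NK cells (0.58) -0.83 thinned, Gzmc in CD8 T cells (-0.34) 0.54 without the top 10 cells, and Gzmc in Treg cells (0.34) -2.11 thinned. The cause was not tested. Of the recomputed values of the main NK results, 18 moved by more than counting error and 26 did not. Of the other values, 154 moved by more than counting error and 531 did not. With no UMI minimum, 3161 genes were higher and 1871 lower in NK cells, against 1153 and 400 with it. With TMM the counts were 750 and 602. TMM scaling of the gene lists, and other T cells without the top Gzma cell, were also chosen after seeing the data.

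No paired analysis was possible because the labels carry no replicate numbers and each genotype has 1 library. Depth limited Gzmk, Gzmg and all mast-like values, which rest on few UMIs or cells.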
